A study of Homo sapiens with 3 samples.

Results

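The SOX genes encode transcription factors that bind DNA through a high-mobility-group box, and 10 of them, grouped around SOX9, are described here by the ARID1B ChIP-seq peaks that lie near them. ARID1B is a subunit of BAF (also called SWI/SNF), the family of complexes that slide and remove nucleosomes, and it helps tether the complex to DNA. A peak was given to a SOX gene when an end of that gene was the nearest end of any protein-coding gene, or when it lay within 100 kb of the gene body, and for SOX9 every peak on chromosome 17 between 71.1 and 72.3 Mb was taken as well. The genes were chosen by peak positions in these same lists: SOX9 was selected on its many nearest peaks and the other 9 as its relatives, so counts and distances are descriptions without a test. By this rule 11 of 1792 peaks of replicate 1 and 11 of 1820 peaks of replicate 2 belonged to the 10 genes. They formed 8 of the 1313 regions found in both replicates, a region being a set of overlapping peaks of both lists.

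The series held 2 replicates of ARID1B ChIP and 1 input sample, all from HEK293FRT cells, which descend from HEK293, an established line from human embryonic kidney, with neither a genotype nor a treatment on the labels. Nothing in the labels tells whether the replicates were separate cultures, so their spread may be technical. The input was not analysed here, and the lists carry no read counts, so depth is unknown and expression of the SOX genes was not measured. Every peak carries a score given by the authors on a scale they did not state, with a median of 74 in replicate 1 (range 10 to 1537) and of 75 in replicate 2 (range 11 to 1642). The percentile of a score in its own list is used below, where 100 is the highest. All positions are on the genome build hg38.

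SOX proteins are divided into groups by their box and flanking domains. Group E (SOX8, SOX9 and SOX10) directs cartilage, testis, neural crest and kidney tubule development, and SOX9 is the master regulator of chondrocytes. Groups B1 (SOX2 and SOX3) and C (SOX4 and SOX11) act in neural progenitors and in maturing neurons, group D (SOX5 and SOX6) works with SOX9 in cartilage, and group F (SOX17) acts in endoderm and blood vessels. SOX9 stands in a long gene-poor stretch of chromosome 17 that is known for enhancers acting over great distances, whose loss causes skeletal and sex development disorders in humans.

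SOX9 held most of the peaks. It had 8 peaks in each replicate, which made 6 regions found in both, while SOX2 and SOX5 had 1 region each and the remaining 7 genes had none. Thus 3 of the 10 genes had a region, where by the same rule 2484 of 19866 protein-coding genes had one (12.5%). As many as 6 regions fell to 11 protein-coding genes (0.0554%), of which SOX9 was 1. Because the rule used these positions, the shares are given only for scale.

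**Figure D1:**
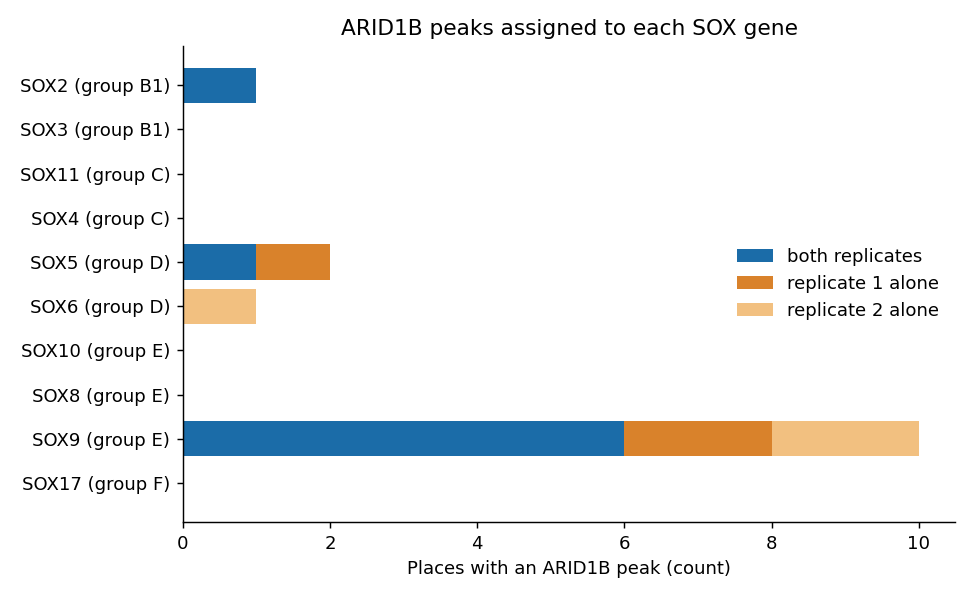
Number of places with an ARID1B peak (horizontal axis, count) assigned to each of the 10 SOX genes (vertical axis, with the SOX group), split into regions found in both replicates and peaks of 1 replicate alone. SOX9 has 6 regions in both replicates and 2 peaks of each replicate alone, SOX2 and SOX5 have 1 region each, and 6 genes have no peak in either list.

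All 6 SOX9 regions lay on the side of lower coordinates, which is upstream, since SOX9 is known to be read toward higher coordinates. The farthest, at chr17:71163446-71163979, was 957.0 kb from the gene and had the highest scores at the locus, 172 in replicate 1 and 193 in replicate 2. These scores placed it at rank 243 of 1792 and rank 217 of 1820, so it stood in the upper part of both lists. It lay inside CASC17, a long non-coding RNA gene, as did the next region, chr17:71181037-71181319, 939.7 kb away. That second region was weak in both lists, with scores of 40 and 39.

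The other 4 regions lay outside every annotated gene. The region at chr17:71438728-71439125, 681.9 kb from SOX9, had scores of 60 in replicate 1 and 152 in replicate 2. Closer in, chr17:71615833-71616129 (504.9 kb) had 30 and 86. Both thus ranked far lower in replicate 1 than in replicate 2. The region 16.3 kb further on, chr17:71632392-71632698 (488.3 kb), scored evenly, with 136 and 140. The region nearest to SOX9, at chr17:71869410-71869680, was still 251.3 kb away, with scores of 63 and 53, and lay 0.89 kb from the uncharacterised non-coding gene LOC107985015. The regions therefore formed 2 close pairs, 17.1 and 16.3 kb apart, with gaps of 176.7 to 257.4 kb between the rest.

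**Figure D2:**
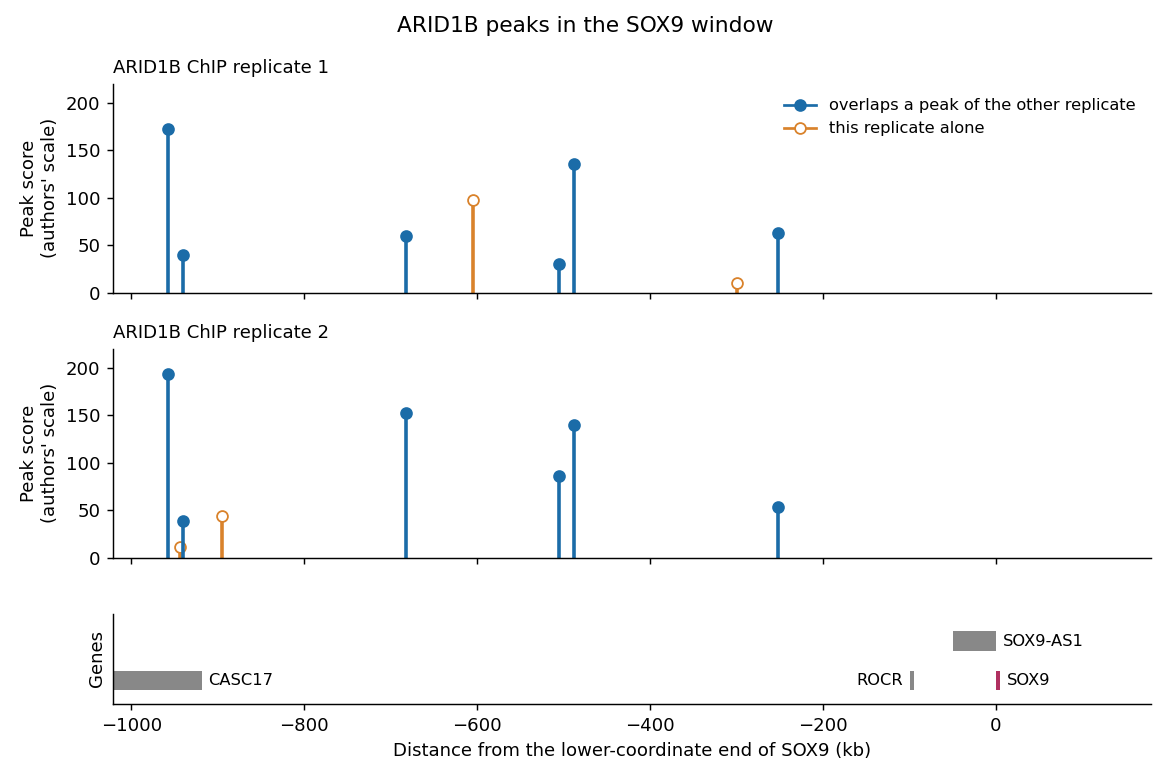
ARID1B peaks over the SOX9 window in replicate 1 (top) and replicate 2 (middle), as peak score on the authors' scale against distance from the lower-coordinate end of SOX9 (kb); filled points overlap a peak of the other replicate and open points were found in 1 replicate alone. Named genes are drawn below. The last 251.3 kb before SOX9, with ROCR and SOX9-AS1, the gene itself and the part of the window beyond it hold no peak.

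No peak of either replicate reached SOX9 itself, the antisense gene SOX9-AS1 beside it, or ROCR, a non-coding RNA gene known for its role in cartilage formation. Upstream, the nearest protein-coding gene is KCNJ2, a potassium channel gene, and the stretch between KCNJ2 and SOX9 measures 1941.0 kb. It held 7 regions, of which 6 lay on the SOX9 side of its midpoint and 1 on the KCNJ2 side (6.18 regions per Mb on the SOX9 side, against 1.03 on the KCNJ2 side). The density over the annotated span of all chromosomes was 0.435 regions per Mb. SOX9 was chosen for its many nearest peaks, and the nearest-end rule divides the stretch at this midpoint, so the choice itself favours the SOX9 side. The farthest SOX9 region was only 12.9 kb past the midpoint, so a small shift of that limit would give it to KCNJ2 by the nearest-end rule. The next region lay 17.1 kb further on, so a somewhat larger shift would move it as well. The densities on the 2 sides therefore depend on where that limit falls. On the other side of that limit, the peaks closest to SOX9 were a replicate 1 peak with a score of 39, 1087.3 kb away, and the shared KCNJ2 region, 1151.2 kb away, with scores of 83 and 91. Downstream, the 519.5 kb between SOX9 and SLC39A11, a zinc transporter gene, held 0 regions and 0 peaks of replicate 1. Replicate 2 had 2 peaks there, with scores of 57 and 90, and both were nearer to SLC39A11.

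Replicate agreement could be measured only roughly, because the peaks were few. Of the SOX9 peaks, 6 of 8 were shared in each list (75.0%, exact Clopper-Pearson 95% interval 34.9 to 96.8). Over the 10 genes, 8 of 11 peaks of each replicate were shared (72.7%, 39.0 to 94.0), beside 73.5% of all peaks of replicate 1 and 72.4% of all peaks of replicate 2. The intervals cover counting error alone and are wide. Over the 8 regions the centres of paired peaks were 1 to 75 bp apart, which the requirement that they overlap favours.

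Peaks of 1 replicate alone at SOX9 were mostly weak. Replicate 2 had peaks with scores of 11 (chr17:71177012-71177337, inside CASC17) and 44 (chr17:71225329-71225546). Replicate 1 had a peak with a score of 10, at percentile 0.17, at chr17:71821522-71821726. The exception was the replicate 1 peak at chr17:71516224-71516453, 604.6 kb from SOX9, whose score of 98 was at percentile 65.2. Of the 475 unshared peaks of replicate 1, 29 scored at least as high (6.11%), while 603 of the 632 replicate 1 peaks with such scores were shared (95.4%).

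Score ranks of the 8 regions ran over most of the scale. The lower of the percentiles in both lists had a median of 42.7 over the 8 regions and 49.2 over all 1313 regions, and for the 6 SOX9 regions it was 34.1. In both lists 3 of 8 regions (37.5%) reached the 50th percentile, those of SOX2 and the SOX9 regions at 957.0 and 488.3 kb, beside 49.5% of all regions. Median percentiles of the 8 regions were 43.7 in replicate 1 and 75.7 in replicate 2, beside 61.3 and 61.9 for all regions. That gap came from a few places. The SOX9 regions at 681.9 and 504.9 kb moved by 43.37 and 51.95 percentile points and the SOX5 region by 37.4, whereas the other 5 differed by at most 10.07 points. A difference over 40 points occurred in 9.52% of all regions.

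**Figure D3:**
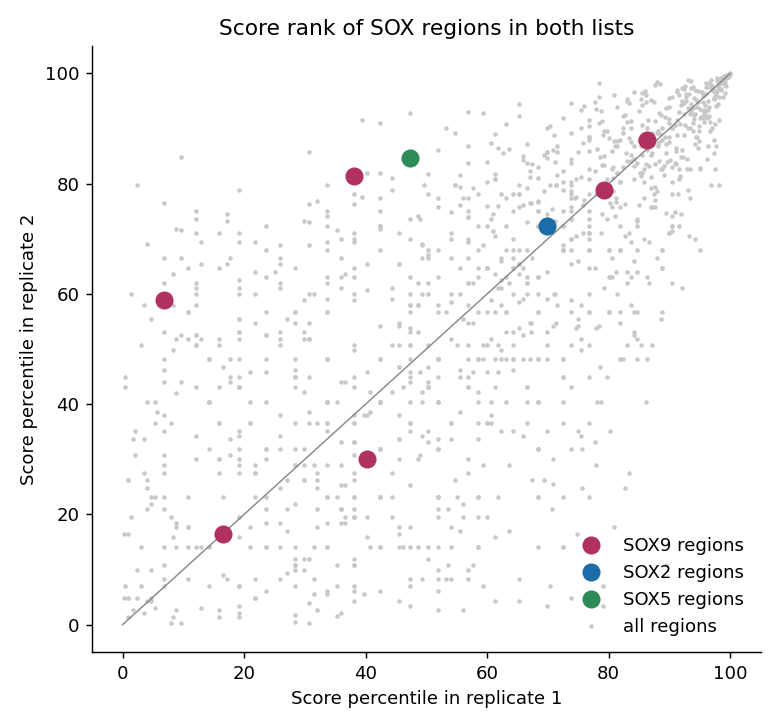
Score percentile in replicate 2 against that in replicate 1 for all 1313 regions (grey) and for the regions of SOX9, SOX2 and SOX5 (coloured); the line marks equal percentiles. SOX9 regions at 681.9 and 504.9 kb and the SOX5 region lie well above the line, and the other 5 coloured points lie within 10.07 points of it.

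The 8 regions were remote from gene ends. All 8 lay over 100 kb from the nearest end of a protein-coding gene (136.7 to 957.0 kb), as did 33.0% of all regions, and 5 of the 8 lay over 400 kb away, beside 6.33% of all regions. The rule favours this, since it takes in all of the SOX9 stretch. Outside every annotated gene lay 5 of the 8, beside 30.8% of all regions. Their median width was 302 bp (271 to 534 bp), against 369 bp for all regions.

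Among genes with at least 6 regions, SOX9 had none closer than 251.3 kb. Its regions had a median distance of 593.4 kb from the gene body. NR2F2, a nuclear receptor gene that also stands in a gene desert, had 7 regions, the nearest at 154.8 kb and the median at 353.7 kb. At ZNF703, a zinc-finger corepressor gene, 10 regions began at 20.1 kb with a median of 232.8 kb. The median of the lower score percentile was 34.1 at SOX9, 54.7 at NR2F2 and 90.6 at ZNF703. These genes were taken for their many regions, and the differences between them were not tested.

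**Figure D4:**
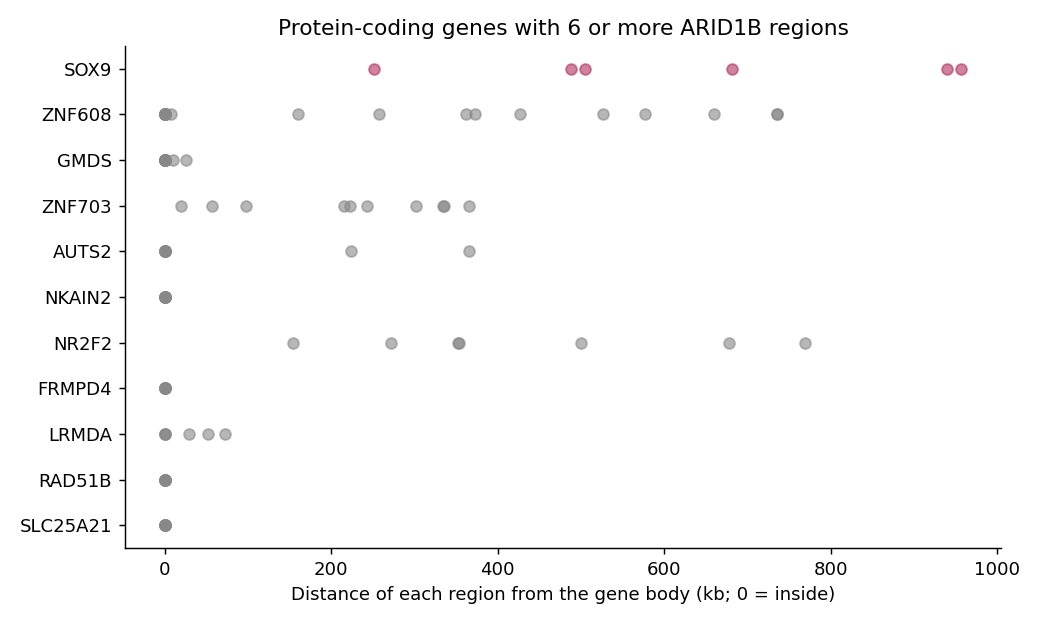
Distance of each region from the gene body (horizontal axis, kb, 0 for a region inside the gene) for the 11 protein-coding genes with 6 or more regions found in both replicates; each point is 1 region. SOX9 is in the top row, with points from 251.3 to 957.0 kb and none inside the gene.

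The other group E genes, SOX8 and SOX10, had no peak by the rule in either list. The region nearest to SOX8, which acts beside SOX9 in the mouse testis, was 391.8 kb away in RAB40C, with scores of 26 and 44. From SOX10, the neural crest and glial regulator, the nearest region was 1196 kb away in IFT27 (scores of 64 and 66). SOX9 was thus the group E gene with peaks assigned to it in these lists, but the rule does not give these genes equal territory. The SOX9 side of its upstream stretch alone measured 970.5 kb. The nearest SOX8 region was closer to its gene than every SOX9 region except that at 251.3 kb, but RAB40C was nearer to it. Replicate 2 also had a peak with a score of 100 at 284.9 kb from SOX8, nearest to TPSD1.

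In group B1, SOX2, a pluripotency and neural progenitor factor, had 1 region at chr3:181851103-181851488. Its scores of 107 in replicate 1 and 114 in replicate 2 gave percentiles of 69.9 and 72.4, so it stood in the upper part of both lists. It lay 136.7 kb downstream of SOX2, outside annotated genes, and was given to SOX2 by the nearest-end rule, not by the limit of 100 kb. SOX3, its relative on the X chromosome, was 4372 kb from the nearest region, which lay closest to FHL1.

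In group D, SOX5 had 1 region inside the gene, at chr12:24378652-24378936, with scores of 69 in replicate 1 and 170 in replicate 2. It was 183.7 kb from the higher-coordinate end, where the reference places a SOX5 start. Replicate 1 alone had another peak inside SOX5, at chr12:24478297-24478521, with a score of 57. SOX6, nearly as long a gene at 772.03 kb beside the 1033.15 kb of SOX5, held no peak inside it. Replicate 2 alone had a SOX6 peak with a score of 85, at chr11:15650163-15650378, 316.1 kb beyond its downstream end in the non-coding gene LINC02751. By the rule SOX5 and SOX6 thus differed by a single region found in both replicates. The region nearest to SOX6 lay outside the rule, 159.0 kb away in PLEKHA7, with scores of 28 in replicate 1 and 64 in replicate 2.

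In group C, SOX4, which acts in neuronal and immune cell differentiation, had no peak by the rule, but only narrowly. At 150.0 to 174.6 kb downstream of SOX4, inside the long non-coding RNA gene CASC15, lay 3 regions, with scores of 149 and 81, 192 and 167, and 58 and 56 in replicates 1 and 2. The strongest, chr6:21749795-21750147, stood at percentiles 88.3 and 84.2, above the median member region. They were nearest to LOC124901483, a protein-coding gene known only as a predicted transcript, which stands 65.9 kb from SOX4. When the 470 protein-coding genes with predicted transcripts alone were left out, a choice made after these positions were seen, all 3 regions fell to SOX4, and the 10 genes then had 11 regions at 4 genes. SOX11, the other group C member here, was 3329 kb from its nearest region, and SOX17 of group F was 4401 kb from its own.

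**Figure D5:**
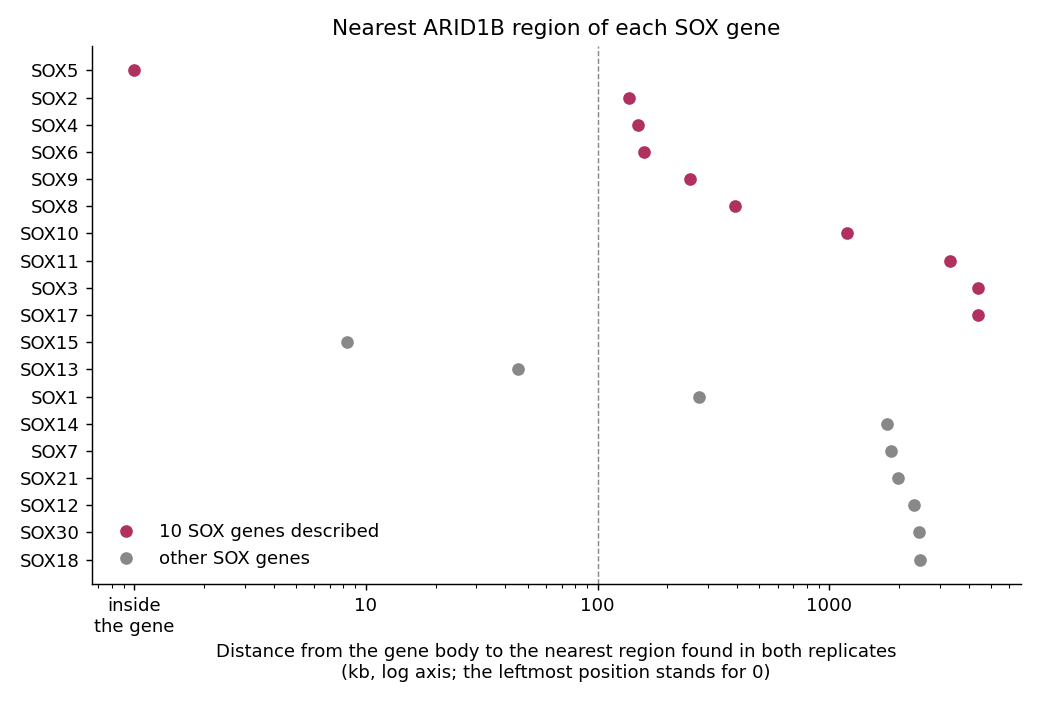
Distance from each SOX gene body to the nearest region found in both replicates (horizontal axis, kb, log scale; the leftmost position stands for 0, inside the gene), for the 10 genes described (red) and the other SOX genes (grey). The dashed line marks 100 kb. Of the 10 genes, SOX5 alone lies left of the line, SOX2, SOX4 and SOX6 lie just right of it, and SOX10, SOX11, SOX3 and SOX17 are over 1000 kb from any region.

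The wider family was counted by the same rule. Of 9 other SOX genes (SRY, on the Y chromosome, was not counted), 2 had a region, beside 12.5% of protein-coding genes. For SOX13, another group D gene, it lay 45.3 kb away at chr1:204027494-204027792, with scores of 72 and 104. The SOX15 region at chr17:7579138-7579879 (100 and 186) was 8.3 kb from SOX15, but it covered the start of CD68, a macrophage gene that lies closer. SOX1, SOX7, SOX12, SOX14, SOX18, SOX21 and SOX30 had none, and their nearest regions were 274.7 to 2472 kb away.

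Cartilage genes taken as downstream of SOX9 were looked at next. Of these, 2 of 20 had a region (10.0%), no larger a share than the 12.5% of all protein-coding genes. COL2A1, the gene of type II collagen, had one 15.6 kb from the gene at chr12:48021767-48022281, with scores of 127 and 195. It had the highest scores of the list in both replicates. COL9A1, the gene of a type IX collagen chain, had 2. One of them lay inside it (98 and 103), and the other 37.5 kb away in COL19A1 (95 and 64). ACAN, COMP and the other cartilage matrix genes had none.

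The COL2A1 region covered the annotated start of LOC124902927, a non-coding RNA gene, and is shown because COL2A1 is the classical target of SOX9. The sequence runs from 250 bases before to 50 bases after that start (RefSeq, GRCh38.p14, chr12:48022126-48022425, minus strand, 5′ to 3′), and the capitals mark the 156 bases inside the region.
LOC124902927 start: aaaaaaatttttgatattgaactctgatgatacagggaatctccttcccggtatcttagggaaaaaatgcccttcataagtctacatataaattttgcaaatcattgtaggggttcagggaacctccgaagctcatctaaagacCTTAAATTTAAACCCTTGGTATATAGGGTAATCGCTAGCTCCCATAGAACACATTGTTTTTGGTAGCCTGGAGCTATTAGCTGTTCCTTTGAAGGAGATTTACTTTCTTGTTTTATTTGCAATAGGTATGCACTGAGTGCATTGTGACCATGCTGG
The core recognised by SOX proteins, ACAAT or ATTGT on the opposite strand, occurred 3 times in this sequence, 2 of them among the 156 capitals. The rest of the region was not read. Either form was present at least 1 time in 27.4% of the 35116 starts in the reference table. How many starts held 3 was not counted, so its presence here is a description only. None of the 5 SOX genes among the 10 that have a start in that table had a peak there.

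A list of 30 genes linked to SOX9 in limb, testis and kidney was also counted, and not all of them induce SOX9 or act with it. Of these, 6 had a region (20.0%), again beside 12.5% of protein-coding genes. WNT5A, a Wnt ligand of limb outgrowth, had the strongest, inside the gene at chr3:55491346-55491887, with scores of 308 and 234. FGFR2, a fibroblast growth factor receptor, had 3, of which the one inside the gene scored 185 and 222. The transcription factor gene ETV4 had 1 at 27.4 kb (112 and 166). FGF9, a ligand that upholds SOX9 in the mouse testis, had 2, the nearer at 7.5 kb (97 and 100). For the prostaglandin synthase gene PTGDS the region was 91.0 kb away at the start of TRAF2 (92 and 128), the gene nearest to it. WNT5A and FGFR2 thus each had a region that outscored every SOX9 region in both lists. GLI3, which encodes a transcription factor of hedgehog signalling, had 3 regions as FGFR2 did. The lower percentiles of the GLI3 regions were 21.0, 15.9 and 23.6, and their percentiles in the other list were 51.95, 40.21 and 56.65. Those of FGFR2 had lower percentiles of 78.35, 14.04 and 87.64. Of the 50 genes of the cartilage list and this one, 8 had a replicate 1 peak (16.0%), beside 15.0% of all protein-coding genes, and 14 had a replicate 2 peak (28.0%), beside 17.4%. These shares were not tested.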

How the data were processed

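Peak lists of 2 ARID1B ChIP replicates from HEK293FRT cells were used; the input was not used here. The submitters' processing notes name the tools bcl2fastq (2.20.0.422), MACS2 (2.1.2) and Bowtie2 (2.3.4.1) and the build hg38. Thresholds, duplicate handling, any use of the input and the antibody: not given in the sources used here. The authors deposited 1 list per replicate, and its score, of unstated scale, only ranked peaks inside that list. Kept PCR duplicates would raise scores. Depth is unknown.

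Starts were converted to count from 1. Genes came from a RefSeq table (GRCh38.p14), with 831 genes off the main chromosomes or mitochondrial left out, which left 58961. Peaks overlapping by at least 1 bp made a region. Directions came from the RefSeq table of starts, and for SOX9 from general knowledge. Members and lists were chosen with earlier results of these data known. Named were all 10 genes, all their regions, and up to 5 genes per list by the lower percentile, plus GLI3, added after its values were seen. The sequences under other regions were not used here. Overlap was tested on simulated peaks. Assignment was checked only on planted peaks that should go to SOX9, so peaks wrongly given to a gene could go unseen. Python 3.11.15, scipy 1.17.1.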

Additional observations from a re-analysis of the deposited data

How the results depend on the processing

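Of 58 recomputed values, 53 stayed within 1.5 times the reported count, inside its interval, or within the spread between replicates. These limits are wide, with an interval of 39.0 to 94.0% for the shares and a spread of 22.6 percentile points. The count of 53 is therefore only a weak sign of stability. Keeping only peaks at or over their list's median score left 3 regions of the 10 genes, 2 of them at SOX9, with a median lower percentile of 78.9. The same filter moved the share of their peaks that were shared from 72.7% to 75.0% in replicate 1 and to 42.9% in replicate 2. Both values stayed inside the wide interval and so were not counted as changed. Taking peaks within 200 kb of a gene body gave 5 genes with a region and 12 regions, since SOX4 and SOX6 were then included. With replicate 1 left out the 50 SOX9-related genes with a region numbered 14, and with replicate 2 left out 8. Stricter overlap, distance to gene bodies, a limit of 50 kb and SOX9 by the same rule as the other genes changed none of the counts they were run on. Leaving out a replicate gave 11 regions, at 3 or 4 genes, and 8 at SOX9. No paired analysis was possible because only 1 group had peak lists. With peak lists alone, a gene without a peak is not shown to be unbound: depth is unknown.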
